A study of Mus musculus with 4 samples.

Results

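Nestin and 9 further genes best known from developing neurons were described in cultured mouse liver cells. The 10 genes were Nes, Tubb3, Crmp1, Dpysl3, Stmn2, Map2, Gap43, Ncam1, Bex1 and Bex2, out of 18193 genes with a probe set named to 1 symbol. Every probe set whose annotation gave 1 of these symbols alone was taken, which made 24 of 45037 probe sets without controls. The genes were chosen with their signals on these arrays already known. Their signals and differences are therefore a description, given without p-values.

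RNA was measured on 4 Affymetrix Mouse430_2 arrays, each started from 5 μg of total RNA. Resident liver stem cell (RLSC) lines had been picked from fetal liver cultures for colonies of palmate shape and grown for about 50 generations. One line, MetE14/3 (clone B2, 1 array), was derived from fetal liver of the cyto-Met transgenic genotype, 14 days post coitum. WTE14/1 (1 array) was derived from a fetal liver of that age labelled wild type. The differentiated hepatocytic line MMH-D3 filled the other 2 arrays. The labels do not give the genotype or age of the animal behind MMH-D3, the mouse strain, the promoter of the cyto-Met transgene, or whether separate cultures were used for the MMH-D3 arrays. Each RLSC line is 1 line on 1 array, so the spread within RLSC is a difference between lines of different genotype. MMH lines in general are known as hepatocytes immortalized by a truncated Met transgene (cyto-Met). Per the labels, primary cultures of all samples were kept in RPMI-1640 with serum, epidermal growth factor, insulin-like growth factor II and insulin, on collagen I. For the RLSC lines alone a later expansion in DMEM with serum is listed, so cell type and this step cannot be told apart. The source name of the wild-type sample reads WT E14/3; its title, WTE14/1, is used here.

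Nestin is an intermediate filament protein that co-assembles with vimentin. It is named for neural stem cells, but it is also made by activated hepatic stellate cells, muscle precursors and some endothelial cells. Beta-III tubulin (Tubb3), the collapsin response mediators Crmp1 and Dpysl3, the stathmin Stmn2 and the microtubule-associated protein Map2 build or regulate microtubules in growing axons and dendrites. Gap43 encodes a membrane protein of growth cones, and Ncam1 a cell adhesion molecule of neurons that is also found on other cells. Bex1 and Bex2 encode small brain-expressed X-linked adaptor proteins, and neither these nor Ncam1 is a cytoskeletal protein. Many neuronal genes are held silent outside the nervous system by REST, a repressor that binds the RE1 element.

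Promoter windows ran from 250 bases before to 50 bases after a start site. They were taken for 6 of the 10 genes from a RefSeq table of build GRCm38.p6, in 7 windows. They are shown for Nes and Tubb3, which had higher signals in both RLSC lines, for Crmp1 and Bex1, whose signal was far higher in WTE14/1 than in MetE14/3, and for the paralog Bex2. Capitals mark matches on either strand to CAGCACC or GGACAGC, core letters of the left and right parts of the RE1 element, to TATAAA, or to GGGCGG, a letter string bound by Sp1-type factors; neighbouring or overlapping matches run together. The windows are, each on the gene's own strand, Nes at chr3:87970843-87971142 (plus strand), Tubb3 at chr8:123411303-123411602 (plus), Crmp1 at chr5:37241808-37242107 (plus, the first of 2 start sites), Bex1 at chrX:136215464-136215763 (minus) and Bex2 at chrX:136068187-136068486 (minus).
Nes: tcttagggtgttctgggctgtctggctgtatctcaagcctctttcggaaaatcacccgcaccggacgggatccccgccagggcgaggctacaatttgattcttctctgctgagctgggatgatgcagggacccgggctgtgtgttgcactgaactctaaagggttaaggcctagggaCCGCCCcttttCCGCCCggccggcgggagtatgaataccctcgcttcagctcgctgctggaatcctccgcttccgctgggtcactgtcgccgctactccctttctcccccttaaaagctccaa
Tubb3: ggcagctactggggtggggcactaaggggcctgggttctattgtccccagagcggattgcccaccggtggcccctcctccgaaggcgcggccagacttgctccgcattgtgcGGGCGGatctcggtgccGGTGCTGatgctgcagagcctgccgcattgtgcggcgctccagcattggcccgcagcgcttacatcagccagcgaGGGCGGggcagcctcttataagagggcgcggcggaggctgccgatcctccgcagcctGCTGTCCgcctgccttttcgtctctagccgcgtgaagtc
Crmp1: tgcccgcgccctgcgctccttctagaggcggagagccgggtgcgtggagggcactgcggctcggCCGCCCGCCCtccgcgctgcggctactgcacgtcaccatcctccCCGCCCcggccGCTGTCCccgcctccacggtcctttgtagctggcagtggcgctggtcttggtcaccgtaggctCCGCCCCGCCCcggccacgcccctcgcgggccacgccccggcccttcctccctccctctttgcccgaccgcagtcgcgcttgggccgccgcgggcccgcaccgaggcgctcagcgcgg
Bex1: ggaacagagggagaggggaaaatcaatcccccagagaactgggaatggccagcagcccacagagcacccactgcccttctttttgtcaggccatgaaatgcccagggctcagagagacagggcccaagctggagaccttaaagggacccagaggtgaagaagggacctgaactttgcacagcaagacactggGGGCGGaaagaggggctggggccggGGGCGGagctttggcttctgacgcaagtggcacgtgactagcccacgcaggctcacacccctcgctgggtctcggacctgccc
Bex2: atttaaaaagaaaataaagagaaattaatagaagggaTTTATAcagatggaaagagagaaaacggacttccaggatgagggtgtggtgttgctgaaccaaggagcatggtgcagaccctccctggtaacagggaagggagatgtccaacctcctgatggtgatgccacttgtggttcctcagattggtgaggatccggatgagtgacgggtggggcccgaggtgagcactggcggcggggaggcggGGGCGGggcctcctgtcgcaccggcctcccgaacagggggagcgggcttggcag

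All 7 member windows held GGGCGG, against 35.7% of the 32851 windows in the table. This string is all G and C, and the member windows were 56.3% to 77.7% G and C, against a median of 52.7% over all windows. GGACAGC stood in 3 of the 7, those of Tubb3, Crmp1 (first start site) and Map2, against 6.56% of all windows. CAGCACC stood only in the Tubb3 window, against 7.14%, and TATAAA only in the Bex2 window, against 13.6%. In Tubb3 the CAGCACC match began at position -121 and the GGACAGC match at position 12 from the start site, so these letters do not form 1 joined element there. No CAGCACC or GGACAGC lay in the windows of Nes, Bex1 or Bex2, which says nothing of elements elsewhere. The ratio of observed to expected CpG was 0.955 in the first Crmp1 window, 0.765 in Tubb3 and 0.702 in Nes, but 0.559 in Bex2 and 0.286 in Bex1, against a median of 0.384 over all windows. Bex1 thus had the fewest CpG of the 7, 8 in its window, against a median of 7 over all windows. A match is a description of letters and not of binding. No window was taken for Dpysl3, Gap43, Stmn2 or Ncam1, so the member counts leave these genes out.

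Values are the authors' probe set signals, on a linear scale, with each array scaled to a trimmed mean of 200.001. Differences are RLSC minus MMH-D3 on quantile-normalized log2(signal + 4), where 1 means 2-fold; the added 4 understates differences of low signals. A mean of about 11.7 in signal, the 40th percentile of probe sets, served as the filter for testing. Signals near or below that level carry no detection call here. Array medians ran from 16.9 to 28.0. Poly-A control probe sets (24, added to RNA before labelling) were 9.46-fold higher by median on MetE14/3 and MMH-D3 array 1, called batch A, than on WTE14/1 and MMH-D3 array 2, called batch B. Each batch thus held 1 array of each group. Signals of different probe sets are not read as transcript levels relative to each other. The marker sums add deposited signals of different probe sets, so a part of a sum is a part of signal only. These sums are not corrected for the different array medians.

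Of the 10 genes, 9 had a probe set past the filter, and Stmn2 had none. Of those 9, Nes, Tubb3, Dpysl3 and Gap43 lay above both MMH-D3 arrays in both RLSC lines after normalization, where 20.8% of the 12598 genes tested did so. Below the filter, the Stmn2 probe set of higher mean did so too. None of the 9 lay below both MMH-D3 arrays, against 21.4% of genes. In the limma fit over all genes, 0.397% were counted as higher in RLSC and 0.516% as lower (adjusted p under 0.05). Nes, which passes the filter only through its RLSC signals, was the 1 member among them. At an unadjusted p under 0.05, 4 members were counted as higher and 0 as lower, against 5.27% and 7.10% of genes. These counts follow from a choice made with the values known, so they are no test of the members and nothing is read from them.

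**Figure D1:**
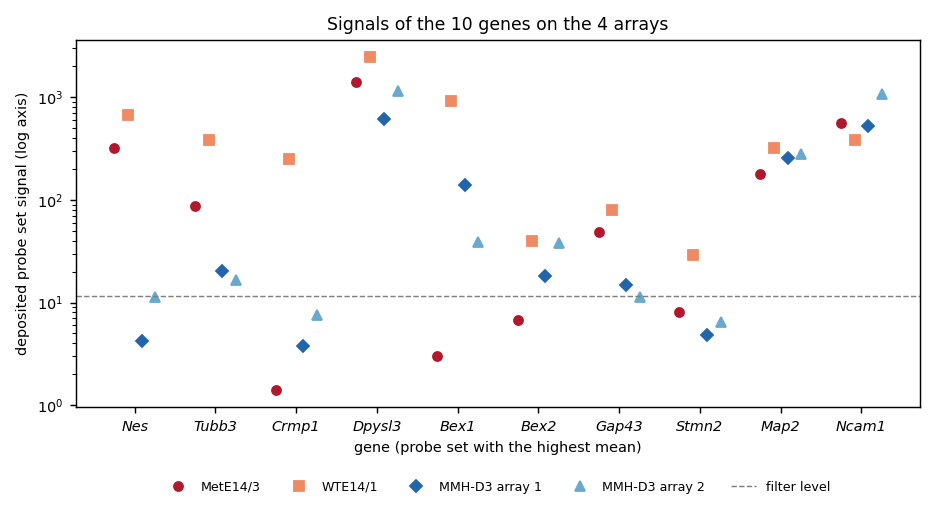
Deposited signal (log axis) of the probe set with the highest mean for each of the 10 genes, with 1 point per array; the dashed line is the filter level of 11.7. The RLSC lines (MetE14/3, WTE14/1) lie above both MMH-D3 arrays for Nes, Tubb3, Dpysl3, Gap43 and, at low signal, Stmn2, while for Crmp1 and Bex1 MetE14/3 is the lowest array and WTE14/1 the highest.

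Nes signal was 322 in MetE14/3 and 663 in WTE14/1, against 4.20 and 11.3 on MMH-D3 arrays 1 and 2 (probe set 1449022_at). Both lines stood well above both MMH-D3 arrays, which lay at or below the filter level. Within their own arrays these signals ranked at percentiles 82.2 and 89.5 in the RLSC lines and at 24.3 and 34.8 in MMH-D3. The RLSC mean was 493 ± 241 and the MMH-D3 mean 7.75 ± 5.03 (SD, n = 2 each), and the difference was 5.31 (SE 0.58), with 5.09 within batch A and 5.53 within batch B. Its size depends on the added constant, because the MMH-D3 signals are so low: it was 5.74 with 1 added and 4.32 with 16 added. In RNA of bulk cultures, fewer cells carrying a transcript and less transcript per cell cannot be told apart.

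The size of the Nes difference rested on 1 of its 3 probe sets. A second probe set (1418289_at) read 63.5 and 172 in MetE14/3 and WTE14/1 against 30.5 and 44.7 on the MMH-D3 arrays, a difference of 1.22. The third (1453997_a_at) read 17.4 and 26.9 in the RLSC lines against 2.60 and 20.4 on the MMH-D3 arrays, a difference of 0.88. All 3 probe sets had the same sign, and in normalized values both lines lay above both MMH-D3 arrays at each. By deposited signal the third probe set overlapped between the groups, since MetE14/3 lay below MMH-D3 array 2. Under a pseudocount of 1, and without either RLSC line, another Nes probe set had the highest mean and stood for the gene, with differences of 1.27, 1.83 and 0.61. With probe set 1449022_at held, the difference ran from 4.32 to 5.81 over 7 settings.

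Tubb3, the neuronal beta-tubulin, read 86.3 in MetE14/3 and 380 in WTE14/1, against 20.1 and 16.7 on the MMH-D3 arrays (1 probe set). The MMH-D3 arrays lay close together and the RLSC lines were 2.05 apart on the log2 scale, MetE14/3 below WTE14/1. The difference was 2.92 (SE 0.77), made of 1.59 within batch A and 4.25 within batch B. Tubb3 was thus higher in both lines, but mostly in WTE14/1.

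Dpysl3 (also called CRMP4), which bundles actin and binds tubulin, read 1399 in MetE14/3 and 2451 in WTE14/1, against 612 and 1139 on the MMH-D3 arrays. Both groups had high signals, at percentiles 94.7 and 97.3 of the arrays in the RLSC lines and 88.8 and 93.6 in MMH-D3. The difference was 1.16 (SE 0.48) and came to 1.16 within each batch; in both groups the batch B array read higher. Its 3 probe sets had the same sign, from 0.55 to 1.24, and no overlap between the groups at any of them. On the normalized scale the first probe set differed 2.24-fold.

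Crmp1, the other collapsin response mediator of the group, read 1.40 in MetE14/3 but 247 in WTE14/1, against 3.80 and 7.63 on the MMH-D3 arrays (1 probe set). WTE14/1 alone was above the filter level, and MetE14/3 was the lowest of the 4 arrays. The mean difference of 1.86 (SE 1.63) had opposite parts, -0.70 within batch A and 4.41 within batch B. The mean thus describes 1 line and not the RLSC group.

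Stmn2, a neuronal stathmin that promotes microtubule turnover in growth cones, stayed below the filter at both probe sets. The one with the higher mean (1423281_at) read 8.0 in MetE14/3 and 29.3 in WTE14/1, against 4.80 and 6.50 on the MMH-D3 arrays. The other read 2.10 and 24.5 in these lines against 8.70 and 10.9 on the MMH-D3 arrays, and their differences had opposite signs, 0.85 and -0.28. WTE14/1 was the highest array at both.

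Map2, the dendritic microtubule-associated protein, read 180 in MetE14/3 and 323 in WTE14/1, against 257 and 279 on the MMH-D3 arrays. The MMH-D3 arrays lay between the RLSC lines, and the difference was -0.22 (SE 0.47). Its 4 probe sets ranged from -0.53 to 0.77, of which 2 were positive and 2 negative. No common direction was seen for Map2.

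Gap43 read 49.1 in MetE14/3 and 79.0 in WTE14/1, against 14.7 and 11.4 on the MMH-D3 arrays (1 probe set). The groups did not overlap, but MMH-D3 lay at about the filter level. The difference was 1.77 (SE 0.55), with 1.25 within batch A and 2.28 within batch B.

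Ncam1 read 554 in MetE14/3 and 386 in WTE14/1, against 521 and 1060 on the MMH-D3 arrays. MetE14/3 lay between the MMH-D3 arrays and WTE14/1 below both, for a difference of -0.73 (SE 0.49). Batch A gave 0.04 and batch B -1.50. Of its 7 probe sets 3 were positive and 4 negative, from -0.73 to 0.41, and the median over probe sets past the filter turned the sign to 0.13. At the probe set of highest mean, Ncam1 was lower in WTE14/1 than in MetE14/3.

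Bex1 read 3.00 in MetE14/3 but 906 in WTE14/1, against 138 and 39.2 on the MMH-D3 arrays (1 probe set). The MMH-D3 arrays lay between the RLSC lines, so the group ranges overlapped. The group difference of 0.01 (SE 2.12) hid -4.48 within batch A and 4.51 within batch B. Bex2 read 6.80 in MetE14/3 and 40 in WTE14/1, against 18.0 and 37.8 on the MMH-D3 arrays, a difference of -0.73 (SE 0.72). MetE14/3 was the lowest array for both Bex genes and WTE14/1 the highest by deposited signal, although after normalization MMH-D3 array 2 stood above WTE14/1 for Bex2.

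**Figure D2:**
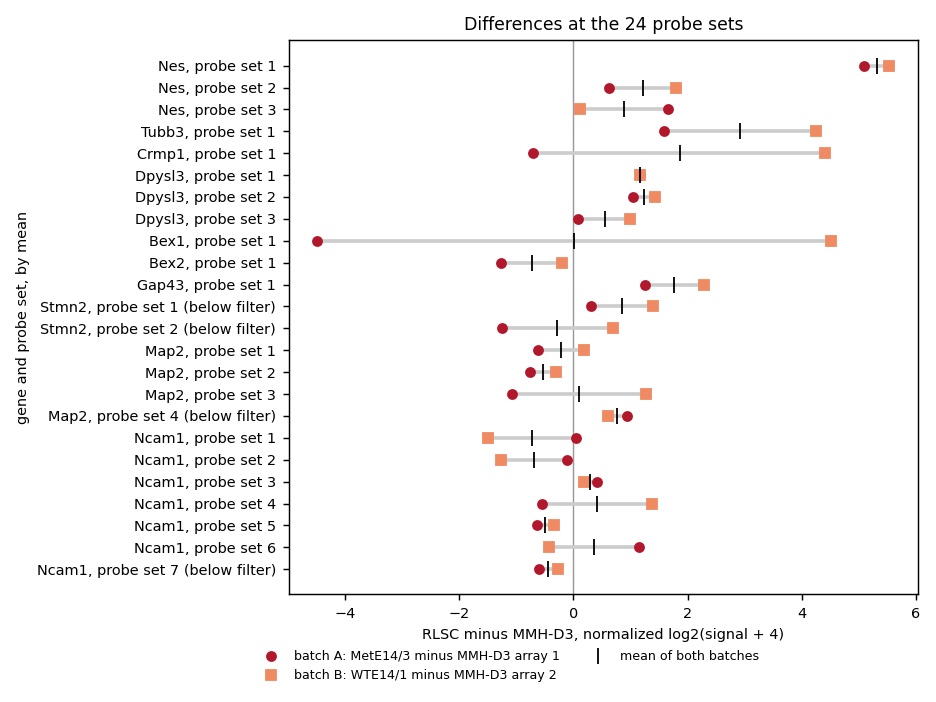
Difference RLSC minus MMH-D3, on normalized log2(signal + 4), at each of the 24 probe sets, numbered within a gene by mean signal; circles are MetE14/3 minus MMH-D3 array 1 (batch A), squares WTE14/1 minus MMH-D3 array 2 (batch B), and ticks their mean. Both batches are close to 5 at the first Nes probe set only, Crmp1 and Bex1 have opposite signs in the batches, and the Map2 and Ncam1 probe sets lie on both sides of 0.

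The RLSC lines were next set side by side; with 1 array each there is no test. Among the 9 members past the filter, 8 were higher in WTE14/1 than in MetE14/3. The share of all genes that did so was not counted, so nothing is read from this number. At least 4-fold higher signals in WTE14/1 were seen for Tubb3, Crmp1 and Bex1, 3 members, where 2.33% of the genes tested were. In MetE14/3 no member was higher by at least 4-fold, against 2.80% of genes. The members were chosen with their values known, so nothing is read from their 4-fold counts. Bex1 differed by -7.03 and Crmp1 by -5.41, MetE14/3 minus WTE14/1, on the log2 scale. The MMH-D3 arrays differed by 1.97 and -0.31 for these genes, array 1 minus array 2. For Nes and Dpysl3 the lines differed by -1.06 and -0.88 and the MMH-D3 arrays by -0.61 and -0.89. The MMH-D3 arrays were at least 4-fold apart at 5.96% of genes and at 0 of the members. MetE14/3 and WTE14/1 lay in different batches and differed in genotype, so line, batch and genotype cannot be told apart. The Y-linked gene Uty also differed between these lines, at 3.40 in MetE14/3 and 304 in WTE14/1. A difference in sex between the source animals was not tested.

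**Figure D3:**
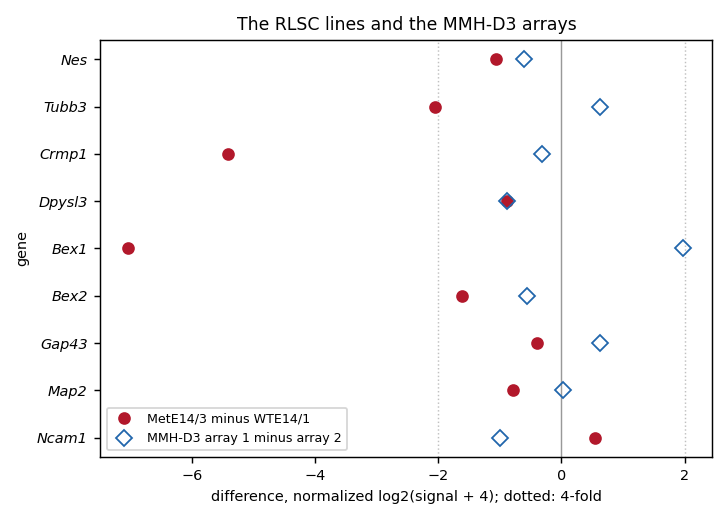
Difference between the RLSC lines (MetE14/3 minus WTE14/1, filled circles) and between the MMH-D3 arrays (array 1 minus array 2, open diamonds), on normalized log2(signal + 4), for the 9 genes past the filter; dotted lines mark 4-fold. Bex1 and Crmp1 lie far to the left, Tubb3 just past 4-fold, and for Dpysl3 the lines differ as the MMH-D3 arrays do.

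Genes whose pattern over the 4 arrays lay nearest to a member were listed by Euclidean distance between gene-centred normalized log2 values. Nearest to Nes were Pard6g, a polarity protein (distance 0.653), the matrix glycoprotein tenascin C, Tnc (0.700), the protocadherin Pcdh18 (0.753), the T-box factor Tbx20 (0.815) and the neuron navigator Nav2 (0.870). Pard6g read 543 in MetE14/3 and 859 in WTE14/1, against 15.3 and 20.9 on the MMH-D3 arrays. Nav2 read 240 and 235 in these lines, against 0.900 and 2.12. These genes shared with Nes a large step between the groups and a smaller one within them. The step within groups was not always small. Tnc read 462 in MetE14/3 and 1588 in WTE14/1, against 7.10 and 26.8 on the MMH-D3 arrays. Pcdh18 read 217 and 660 in these lines, against 1.80 and 3.03.

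The semaphorin Sema3a (0.310) and Tmeff1 (0.418), a membrane protein with follistatin-like domains, lay nearest to Tubb3. Sema3a, whose product repels growth cones through collapsin response mediators, read 326 and 1580 in MetE14/3 and WTE14/1 against 101 and 64.7 on the MMH-D3 arrays. Nearest to Crmp1 were the Y-linked demethylase gene Uty (0.296) and the proteoglycan versican, Vcan (0.479). Uty read 3.40 in MetE14/3 and 304 in WTE14/1, against 7.90 and 15.1 on the MMH-D3 arrays, with WTE14/1 far above the other arrays, as for Crmp1. Nearest to Bex1 were the imprinted zinc finger gene Peg3 (1.05) and Armcx4, an armadillo-repeat gene (1.30). Peg3 read 5.90 in MetE14/3 and 2265 in WTE14/1, against 244 and 35.5 on the MMH-D3 arrays. The other nearest pairs were Gm5600 and Stx1a for Dpysl3, Pax5 and Jph2 for Bex2, Slc5a3 and Cmtm3 for Gap43, Nop58 and Usp15 for Map2, and Mettl26 and Nit1 for Ncam1. With 4 arrays many genes share a pattern, and a short distance is no sign of a shared function.

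Relatives and partners of the members were taken from 6 lists of 97 genes, of which 90 had a probe set and 75 were tested. None of the 75 passed limma in either direction, against 0.397% of all genes higher and 0.516% lower. At an unadjusted p under 0.05, 5 were higher and 2 lower, against 5.27% and 7.10% of all genes. Both RLSC lines lay above both MMH-D3 arrays at 27 of the 75 genes, against 20.8% of all genes, and below both at 8, against 21.4%. The median difference over all genes tested was 0.03.

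The other intermediate filament genes had a median of 0.13 over 10 tested. Vimentin (Vim), the assembly partner of nestin, read 13466 in MetE14/3 and 17248 in WTE14/1, against 13957 and 14172 on the MMH-D3 arrays. All 4 values lie near the array maxima of 15301 to 19155. The Vim difference was 0.12 (SE 0.18), and saturation was not tested. The nuclear lamin gene Lmna differed by 0.10 (SE 0.49).

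The other tubulin genes had a median of 0.42 over 14 tested. Tuba1a, an alpha-tubulin of developing neurons and many dividing cells, read 8832 and 11255 in MetE14/3 and WTE14/1 against 7582 and 1083 on the MMH-D3 arrays, a difference of 1.84 (SE 0.81, limma adjusted p = 0.439). MMH-D3 array 2 was the array that stood apart there. Tubb5, the main beta-tubulin of proliferating cells, differed by 0.45 (SE 0.32). Batch A gave a list median of -0.04 and batch B one of 0.75.

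Other collapsin response mediators, stathmins and microtubule-binding genes had a median of 0.25 over 19 tested. In both lines 9 of them lay above both MMH-D3 arrays and 1 below both, against 20.8% and 21.4% of all genes tested. Stmn1, the stathmin of dividing cells, read 5631 in MetE14/3 and 4841 in WTE14/1, against 4404 and 932 on the MMH-D3 arrays, 1.45 apart by mean (SE 0.66, limma adjusted p = 0.461). Mapre1, a microtubule plus-end protein, differed by 0.57 (SE 0.34). MMH-D3 array 2 stood apart from the other arrays for Stmn1, as it did for Tuba1a.

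Other Bex and Tceal genes had a median of 0.61 over 5 tested. Bex3, a Bex gene expressed beyond the brain, read 2381 in MetE14/3 and 3141 in WTE14/1, against 2006 and 1758 on the MMH-D3 arrays, 0.61 apart by mean (SE 0.31). Tceal9 differed by 0.86 (SE 0.36, limma adjusted p = 0.407). The low MetE14/3 signals of Bex1 and Bex2 were not shared by Bex3.

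Growth cone and neural adhesion genes had a median of 0.33 over 14 tested. In both lines 6 lay above and 5 below both MMH-D3 arrays, against 20.8% and 21.4% of all genes tested. Basp1, a membrane protein of growth cones related in function to Gap43, read 5518 and 5515 in the RLSC lines and 5541 and 4814 on the MMH-D3 arrays, 0.15 apart by mean (SE 0.23). Marcks, another membrane-bound kinase substrate, differed by 0.35 (SE 0.47).

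Genes of the REST repressor complex had a median of 0.41 over 13 tested. Rest itself read 450 in MetE14/3 and 555 in WTE14/1, against 288 and 402 on the MMH-D3 arrays. Its signal was above the filter level on all 4 arrays, with a difference of 0.50 (SE 0.41, limma adjusted p = 0.735). The deacetylase Hdac2 differed by 0.77 (SE 0.33) and the phosphatase Ctdsp2 by -0.43 (SE 0.39).

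**Figure D4:**
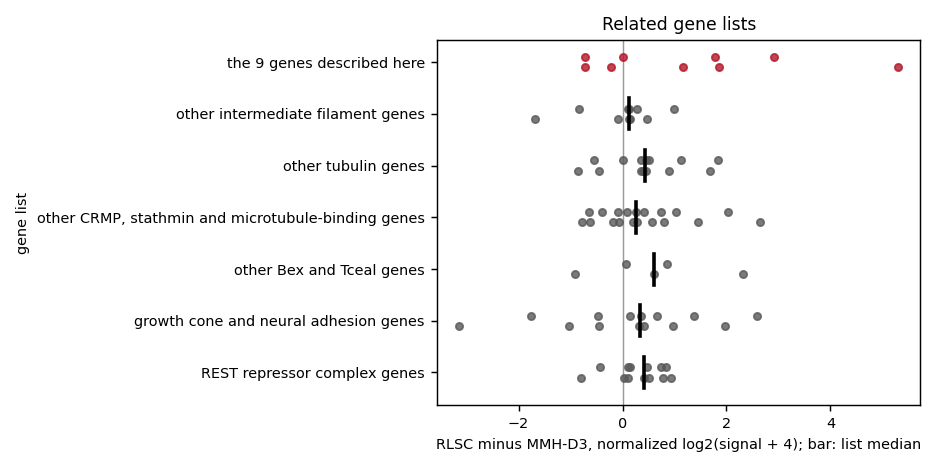
Difference RLSC minus MMH-D3 on normalized log2(signal + 4) for the 9 genes past the filter (top) and for the tested genes of the 6 related lists, 1 point per gene; bars are list medians, from 0.13 to 0.61. No gene of the 6 lists passed the limma threshold.

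Marker lists of cell types that carry these transcripts were examined next. Of 8 neural progenitor markers with a probe set none exceeded the 80th percentile of signals (266), and the summed signal was 93.3 and 120 in MetE14/3 and WTE14/1, against 54.3 and 58.1 on the MMH-D3 arrays. Sox2, the defining factor of neural stem cells, read 7.0 and 1.44 in the RLSC lines and 0.500 and 4.12 in MMH-D3. Of 13 mature neuron markers 1 exceeded that level, the ubiquitin hydrolase Uchl1, at 19.6 in MetE14/3 and 618 in WTE14/1, against 37.2 and 20.0 on the MMH-D3 arrays. The summed neuronal signal was 140 in MetE14/3 and 899 in WTE14/1, against 174 and 169 on the MMH-D3 arrays. Uchl1 made up most of the WTE14/1 sum. Like Crmp1 and Bex1, it was highest in WTE14/1.

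Glial and neural crest markers summed to 331 and 317 in MetE14/3 and WTE14/1, against 494 and 879 on the MMH-D3 arrays, with 2 of 10 over the 80th percentile. These were Mbp and Erbb3, which differed by -1.07 (SE 0.44) and -3.37 (SE 1.15) without passing, and Sox10 lay between 7.59 and 20.7 on all arrays. Endothelial markers summed to 41.1 and 74.3 in the RLSC lines against 24.5 and 84.4 on the MMH-D3 arrays, and Pecam1 did not exceed 5.07. Skeletal muscle markers summed to 49.5 and 59.5 against 20.2 and 95.5 on the MMH-D3 arrays. Neither list had a marker over the 80th percentile.

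Among stellate cell and fibroblast markers, 4 of 11 lay above both MMH-D3 arrays in both RLSC lines, 2 lay below both and the rest overlapped. Those above were Acta2, Pdgfrb, Hand2 and Col1a2, and those below Reln and Pdgfra. Some of the 11 were under the filter. Of the 5 tested, 3 lay above and 1 below, against 20.8% and 21.4% of all genes tested. Their summed signal was 1974 in MetE14/3 and 9311 in WTE14/1, against 116 and 153 on the MMH-D3 arrays, and 1 of 11 exceeded the 80th percentile. Of 5 tested, 1 was higher in limma. That gene was smooth muscle actin, Acta2, at 1638 and 8962 in MetE14/3 and WTE14/1 beside 47.5 and 38.7 in the MMH-D3 pair, with a group difference of 6.20 (SE 0.80, limma adjusted p = 0.0372). Acta2 made up most of the RLSC sums. Pdgfrb, the platelet-derived growth factor receptor of stellate cells and pericytes, read 248 and 65.8 in MetE14/3 and WTE14/1 beside 0.200 and 1.19 in the MMH-D3 pair, with a group difference of 4.70 (SE 0.80, limma adjusted p = 0.0670). Pdgfra ran the other way, at 12.1 and 6.80 in MetE14/3 and WTE14/1 against 13.2 and 21.0 on the MMH-D3 arrays. Lrat, Reln and Lhx2, defining markers of quiescent stellate cells, stayed at or below 19.2 on every array. That highest value was Reln on MMH-D3 array 1, and Reln read 1.80 and 2.14 in the RLSC lines. The values of Pdgfrb, Pdgfra, Lrat, Reln and Lhx2 were picked out after they had been seen. The part of such cells in the Nes signal was not tested.

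The label of MMH-D3 as hepatocytic was checked against 9 hepatocyte markers with a probe set. They summed to 392 in MetE14/3 and 190 in WTE14/1, against 5741 and 10187 on the MMH-D3 arrays. In limma, 3 of 7 tested were lower in RLSC, against 0.516% of all genes tested. After normalization both RLSC lines lay below both MMH-D3 arrays at 8 of the 9, while Cps1 overlapped, with a difference of 0.27. Of the 7 tested, 7 lay below, against 21.4% of all genes tested. Cps1 and Fgb were under the filter, and Fgb was low on MMH-D3 array 1 too. Afp read 75.8 and 134 in MetE14/3 and WTE14/1 against 1456 and 923 on the MMH-D3 arrays. Apolipoprotein B (Apob) read 77.4 and 13.0 in the RLSC lines against 2879 and 4647 on the MMH-D3 arrays, and Apoa1 4.20 and 1.01 against 44.6 and 1951. Apob was the largest part of both MMH-D3 sums. The hepatocyte regulator Hnf4a read 205 and 6.76 in MetE14/3 and WTE14/1 against 1049 and 1687 on the MMH-D3 arrays. Albumin (Alb) read 1.70 and 2.91 against 44.7 and 440, so the MMH-D3 arrays themselves differed widely in Alb and Apoa1.

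**Figure D5:**
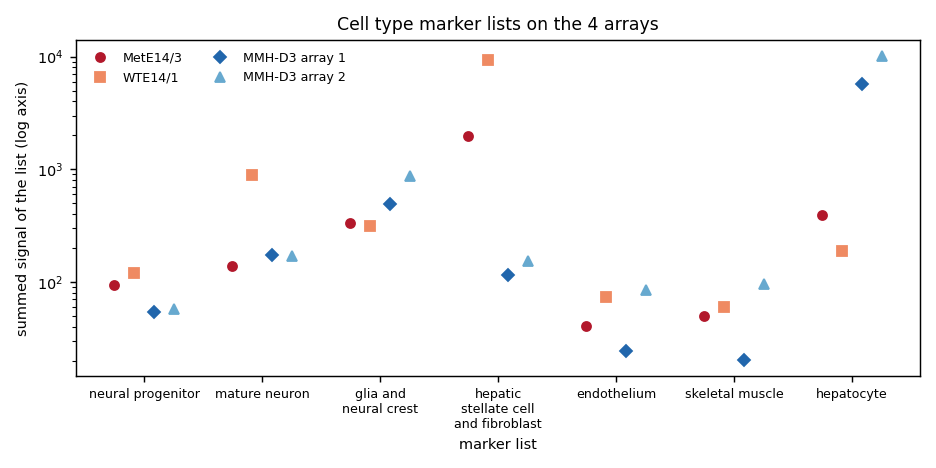
Summed deposited signal (log axis) of 7 marker lists on the 4 arrays, 1 probe set per gene (that of highest mean). The stellate and fibroblast list is higher in both RLSC lines and the hepatocyte list higher in both MMH-D3 arrays, while the mature neuron list is highest in WTE14/1 (899).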

How the data were processed

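The deposited intensities are linear signals per probe set, which the authors produced in GCOS (Affymetrix software), per the submitters' processing notes. Version, algorithm and settings of GCOS were not given in the sources used here. All 4 value columns were mapped to samples. Gene names were those of the platform annotation, compared by Entrez identifier with RefSeq genes of GRCm38.p6; 34958 of 45101 probe sets had 1 symbol, 932 several and 9160 none here, beside 64 controls. The 10 genes, the related lists and the tests were chosen with earlier results of these data known.

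Values entered as log2(signal + 4) and were quantile normalized, since array medians differed by 0.616. Probe sets under the 40th percentile of mean were removed. Where several probe sets of a gene remained, that of highest mean stood for it. The groups were compared with limma (version 3.58.1, R version 4.3.3) by lmFit and a trended eBayes, two-sided, with Benjamini-Hochberg adjustment over 12598 genes, at 0.05. There were 2 residual and 4.24 prior degrees of freedom. Since nothing says that the MMH-D3 arrays are separate cultures, p-values cover the spread of these arrays alone, which may be technical, and the number of arrays limits the precision. The fit was tested on simulated data.

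Named genes were the 10 members, Rest, and in each related list up to 3 genes past the test or the 2 with the highest mean. To these came the 5 genes nearest to Nes and the 2 nearest to each other member past the filter. Of each marker list, up to 3 genes over the 80th percentile of signals and 7 fixed genes were named. Alternatives were other pseudocounts, the deposited scaling alone, other filters and probe set rules, each array left out, and batch as a block. Holding each gene's probe set fixed was added after the values were seen.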

Additional observations from a re-analysis of the deposited data

How the results depend on the processing

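The count of genes past limma, 50 higher and 65 lower in RLSC, depended on the choices: it was 4 and 5 without a filter and 92 and 106 with every probe set tested on its own. Leaving out 1 array gave 0 to 52 higher and 0 to 154 lower; both were 0 without either MMH-D3 array, 9 and 18 without WTE14/1, and 52 and 154 without MetE14/3. With batch as a block they were 67 and 97, sharing 47 and 64 genes with the fit without it. Nes is no test here, having been chosen by these values; it was not counted past the threshold with a pseudocount of 1, without a filter, with the median of probe sets (2.82), or without any 1 array. Without an array, 1 group is a single array assumed to vary as the other group does. No gene of the 6 related lists passed under any alternative run. Over all settings, the member's own other probe sets included, differences stayed positive for Nes (0.61 to 5.81), Tubb3 (1.59 to 4.25), Dpysl3 (0.55 to 1.62) and Gap43 (1.25 to 2.28). They took both signs for Crmp1 (-0.81 to 4.54), Bex1 (-4.48 to 4.51), Bex2 (-1.51 to 0.08), Map2 (-0.63 to 0.77) and Ncam1 (-1.50 to 0.41). Between the lines, MetE14/3 minus WTE14/1 stayed between -7.80 and -5.63 for Bex1 and between -6.52 and -3.83 for Crmp1. The labels give the groups no shared replicate numbers, so batch was the one pairing of arrays that could be fitted.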

Other observations

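Further genes with WTE14/1 as the highest array were seen in the lists of relatives, and were picked out after their values were seen. The doublecortin-like kinase Dclk1, a microtubule-binding protein, read 13.4 in MetE14/3 and 250 in WTE14/1, against 4.20 and 8.60 on the MMH-D3 arrays. Bex4, another X-linked Bex gene, read 4.0 in MetE14/3 and 179 in WTE14/1, against 1.00 and 7.11 on the MMH-D3 arrays. The neuronal endosome protein gene Nsg1 read 12.8 in MetE14/3 and 113 in WTE14/1, against 10.1 and 3.61 on the MMH-D3 arrays. Tceal8 read 170 in MetE14/3, the lowest array, and 1776 in WTE14/1, against 1296 and 940 on the MMH-D3 arrays, a pattern like that of Bex1. The adhesion molecule L1cam ran the other way, at 319 in MetE14/3 and 46.7 in WTE14/1, against 16.6 and 30.8 on the MMH-D3 arrays. The polysialyltransferase St8sia4, which modifies the Ncam1 protein, read 6.50 and 67.2 in the RLSC lines against 129 and 335 on the MMH-D3 arrays. That difference, -3.14 (SE 0.90), had a limma adjusted p of 0.215.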
